A study of Mus musculus with 9 samples.

Results

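Pdpn, Il7, Tnfsf13b and Ltbr were followed across 9 RNA-seq libraries of mouse stromal cells. These 4 genes were chosen by name, without a threshold on their values, and are 4 of the 26214 genes listed in the table of normalized read counts. All 4 passed the filter on low values and were among the 13601 genes tested.

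The study asked how adipose stromal cells (ASCs) of subcutaneous adipose tissue and fibro-adipogenic progenitors (FAPs) of skeletal muscle differ, and how FAPs change early after muscle damage. It also asked whether ASCs released from adipose tissue enter the damaged muscle. A rise or fall after injury is thus given below as a difference between selected populations, and change within resident FAPs was not tested. Male C57Bl/6 mice (C57Bl/6 J in the methods) aged 8 to 12 weeks received an injection into the quadriceps of either glycerol, which damages muscle fibres, or NaCl as the control, and cells were collected at day 1. ASCs came from subcutaneous adipose tissue after NaCl (n = 3 libraries), FAPs from the quadriceps after NaCl (n = 2) and injured FAPs from the quadriceps after glycerol (n = 3), all selected with magnetic beads as CD31−/CD45−/Sca-1+ cells. Per the methods, adipose tissue was digested with collagenase and DNAse, and muscle with collagenase B and dispase II plus mechanical dissociation. Tissue and digestion therefore cannot be told apart in the comparisons with ASCs. A single library of CD31+CD45+ cells of glycerol-injected muscle has no replicate, so its values are given with no test. Cells of 3 animals were pooled and the triplicates were made from the pool, so the spread between libraries may be technical only, and the p-values then do not carry over to other animals.

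Each library of ASCs, FAPs or injured FAPs held between 24052508 and 27481573 reads on genes, and the CD31+CD45+ library held 13091077. A count of 3 reads, the limit that a count of 0 allows, was worth a normalized value of 2.29 to 4.71 depending on the library. This limit covers counting error only, since reads copied by PCR are not independent molecules.

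Podoplanin, encoded by Pdpn, is a mucin-type membrane glycoprotein of fibroblastic stromal cells, lymphatic endothelium and mesothelium. It binds the platelet receptor CLEC-2, and in its cytoplasmic tail it binds ezrin and moesin, which link the membrane to actin. In lymph nodes, podoplanin-positive fibroblastic reticular cells receive lymphotoxin through LTBR, the receptor encoded by Ltbr, and supply lymphocytes with survival factors, IL-7 (Il7) for T cells and BAFF (Tnfsf13b) for B cells.

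The DNA around the gene starts is shown for the members whose level was compared between the groups and that have an entry among the RefSeq promoters of GRCm38.p6, which was the case for 3 of the 4 members, with 4 entries. Each window is 300 bases long, 250 before and 50 after the start, and is written 5′ to 3′ on the strand of the gene. Pdpn is at chr4:143299515-143299814 (− strand), Tnfsf13b at chr8:10006217-10006516 (+ strand) and Ltbr at chr6:125313836-125314135 (− strand). Capitals mark matches to 3 motifs, searched on both strands: AP-1 (TGANTCA), a loose form of the NF-kB motif (GGGNNNNNCC) and the GC box (GGGCGG).
Pdpn: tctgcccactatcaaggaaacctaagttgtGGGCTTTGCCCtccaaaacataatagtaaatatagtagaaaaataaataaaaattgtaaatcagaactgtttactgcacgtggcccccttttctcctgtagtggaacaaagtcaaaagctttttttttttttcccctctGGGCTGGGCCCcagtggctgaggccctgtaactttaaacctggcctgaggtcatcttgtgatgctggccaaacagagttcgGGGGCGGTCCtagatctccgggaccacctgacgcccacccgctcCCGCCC
Tnfsf13b: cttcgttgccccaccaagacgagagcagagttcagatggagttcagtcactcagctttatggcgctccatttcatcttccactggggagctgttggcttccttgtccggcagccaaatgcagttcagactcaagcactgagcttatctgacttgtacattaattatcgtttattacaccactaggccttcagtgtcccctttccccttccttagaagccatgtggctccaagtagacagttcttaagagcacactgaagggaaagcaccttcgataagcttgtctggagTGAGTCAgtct
Ltbr: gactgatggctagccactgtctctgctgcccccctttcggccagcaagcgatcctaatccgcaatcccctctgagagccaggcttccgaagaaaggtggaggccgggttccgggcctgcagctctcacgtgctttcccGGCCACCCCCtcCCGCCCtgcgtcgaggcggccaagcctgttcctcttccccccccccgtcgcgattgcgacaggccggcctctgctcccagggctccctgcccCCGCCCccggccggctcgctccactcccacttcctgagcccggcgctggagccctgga

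The Pdpn window held 5 places of the loose NF-kB motif, starting at bases 31, 32, 170, 171 and 251, which formed 3 separate stretches, and 2 GC boxes at bases 252 and 295. The last NF-kB match, GGGGCGGTCC, overlaps the first GC box. The Ltbr window held 1 loose NF-kB match (GGCCACCCCC, base 139) and 2 GC boxes at bases 151 and 243. Neither of these windows held the AP-1 motif. The Tnfsf13b window held the AP-1 motif TGAGTCA at base 290 and no match to the other motifs. The second Tnfsf13b entry, chr8:10006383-10006682, overlaps the first and holds the same TGAGTCA at its base 124. A TATA box (TATAAA) was in none of the 4 windows. Of 32851 mouse promoters of this length, 7.81% held the AP-1 motif, 50.8% the loose NF-kB motif, 35.7% the GC box and 13.6% the TATA box. G and C made up 48.7% of the Pdpn window, 48.7% of the first Tnfsf13b window and 70.0% of the Ltbr window, against a median of 52.7% over all promoters. A match describes the letters in the window and no binding was measured.

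Pdpn lies at chr4:143267431-143299564 on the − strand of GRCm38 (ENSMUSG00000028583.14), overlaps no other annotated gene and has 1817 exon bases. In FAPs its normalized counts were 2858 and 2697. In injured FAPs they were 19613, 19007 and 18419. In ASCs they were 23063, 13771 and 13191.5. Both FAP libraries were below every injured FAP and ASC library, while the ASC libraries lay on either side of the injured FAPs, with replicate 1 above them and replicates 2 and 3 below. In the CD31+CD45+ library Pdpn was at 149.1, from 95 reads.

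The Pdpn level varied less between the libraries of each muscle group than between those of ASCs: the coefficient of variation was 4.10% in FAPs and 3.14% in injured FAPs against 33.2% in ASCs. Reads behind these values numbered 2867 to 3006 in FAPs, 24149 to 24997 in injured FAPs and 10508 to 17507 in ASCs. The mean in injured FAPs was 6.84 times that in FAPs, and the closest pair of libraries was 6.44-fold apart. For ASCs over FAPs the ratio of means was 6.00, and the closest pair was 4.62-fold apart. The CD31+CD45+ library held 0.784% of the mean Pdpn level of injured FAPs, 0.894% of that of ASCs and 5.37% of that of FAPs. Because the study singled out podoplanin using these same libraries, its differences from FAPs are description and no test is offered for them. In bulk RNA, fewer cells with a transcript and less of it per cell cannot be told apart, which holds for every gene below.

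**Figure D1:**
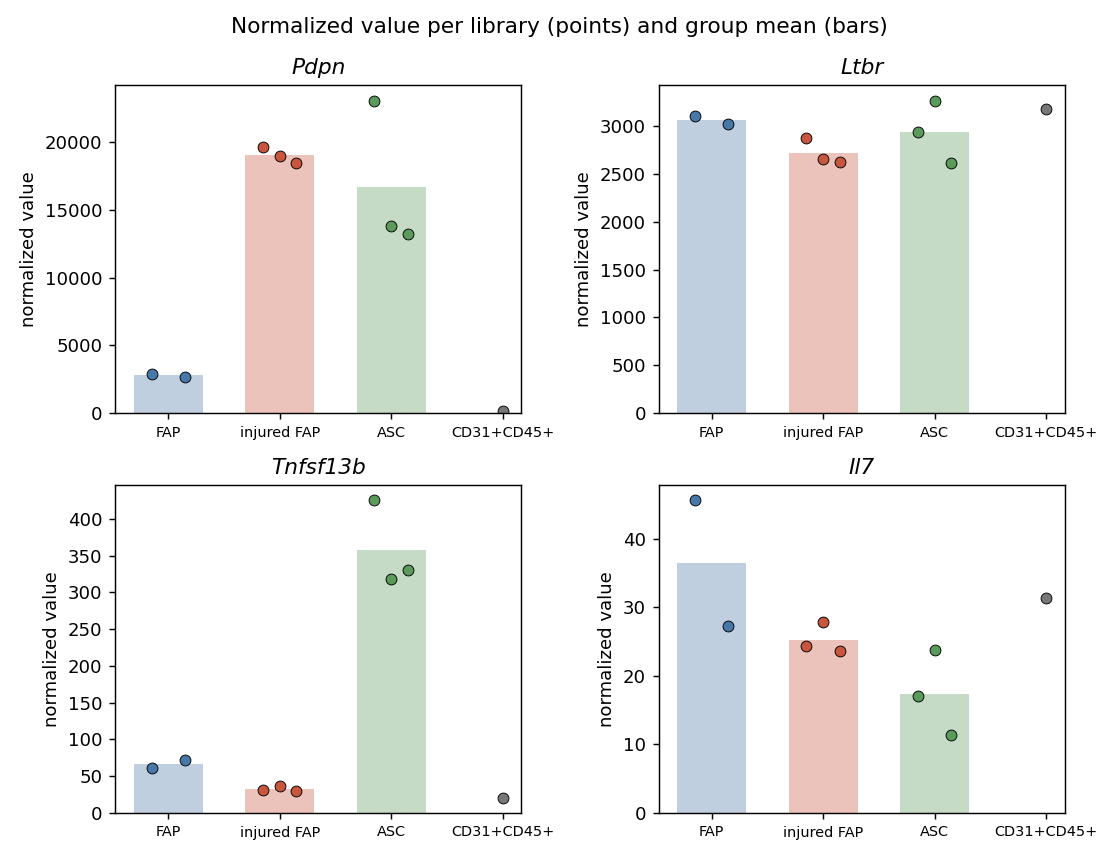
Normalized read counts of Pdpn, Ltbr, Il7 and Tnfsf13b in each library, by group, on axes that start at 0, with 1 point per library and a bar at the mean of each replicated group. Pdpn is low in both FAP libraries and lower still in the CD31+CD45+ library, Tnfsf13b is highest in the 3 ASC libraries, and Ltbr lies between 2619.97 and 3269 in all 9 libraries.

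Injured FAPs and ASCs did not differ in Pdpn past the threshold, an adjusted p under 0.05 with a log2 fold change beyond 0.58 either way. The ratio of means was 1.14, and the log2 fold change was 0.24 (SE 0.18, 95% confidence interval −0.17 to 0.64, limma adjusted p = 0.271), in the same direction as the injured FAPs stood to 2 of the 3 ASC libraries. The comparison rests on ASC replicate 1: without it the log2 fold change was 0.50 (adjusted p = 0.000357), and without ASC replicate 2 or 3 it was 0.12 or 0.09. Scaling mattered too. After quantile normalization the value was 0.96 (adjusted p = 7.22e-05), and with values scaled to total reads it was 0.94 (adjusted p = 0.000198), or 0.22 above the shift of all genes. Over the 21 alternatives the adjusted p ranged from 7.22e-05 to 0.684. For size, the absolute Pdpn change exceeded that of 94.3% of tested genes for injured FAPs against FAPs, 91.9% for ASCs against FAPs and 21.0% for injured FAPs against ASCs.

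Ltbr lies at chr6:125306571-125313885 on the − strand (ENSMUSG00000030339.7), has 2354 exon bases and overlaps no other annotated gene. Its normalized counts were 3105 and 3022 in FAPs, 2875, 2654 and 2631 in injured FAPs, 2942, 3269 and 2619.97 in ASCs and 3181 in the CD31+CD45+ library. The receptor was thus present in every library at much the same level, with both FAP libraries above the 3 injured FAP libraries and the ASC libraries spread across both. Means ± SD were 3063 ± 58.6 for FAPs (n = 2), 2719.9 ± 135 for injured FAPs (n = 3) and 2943 ± 324 for ASCs (n = 3).

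With the scaling of the table, none of the 3 Ltbr comparisons passed the threshold, but scaling decided this for 2 of them. The log2 fold change was −0.17 for injured FAPs against FAPs (95% confidence interval −0.41 to 0.07, limma adjusted p = 0.184) and −0.06 for ASCs against FAPs (−0.30 to 0.18, adjusted p = 0.637), where it turned to 0.02 without ASC replicate 3, was −0.46 after quantile normalization (adjusted p = 0.00569) and was −0.63 and called with total reads (adjusted p = 0.00152). For injured FAPs against ASCs it was −0.11 (−0.33 to 0.11, adjusted p = 0.342), and this sign turned under 3 other scalings: 0.14 with quantile normalization, 0.01 with a common 75th percentile and 0.59 with total reads, which was called (adjusted p = 0.000836). For injured FAPs against FAPs it was −0.32 after quantile normalization (limma adjusted p = 0.0299) and −0.04 with total reads, called in neither. Over the 21 alternatives the adjusted p ranged from 0.0299 to 0.797 for injured FAPs against FAPs. It ranged from 0.00152 to 0.942 for ASCs against FAPs and from 0.000836 to 0.968 for injured FAPs against ASCs. The intervals above lie inside the threshold with the scaling of the table, and no intervals were computed with the other scalings.

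Il7 lies at chr3:7569994-7613760 on the − strand (ENSMUSG00000040329.14) and has 5664 exon bases. Its normalized counts were low in every library: 45.6 and 27.3 in FAPs, 24.32, 27.9 and 23.6 in injured FAPs, 17.1, 23.8 and 11.3 in ASCs and 31.4 in the CD31+CD45+ library. FAPs and ASCs did not overlap, while injured FAPs overlapped with both. These values rest on 29 and 48 reads in FAPs, 31 to 36 in injured FAPs, 9 to 21 in ASCs and 20 in the CD31+CD45+ library. Means ± SD of Il7 were 36.5 ± 13.0 for FAPs (n = 2), 25.3 ± 2.29 for injured FAPs (n = 3) and 17.4 ± 6.25 for ASCs (n = 3).

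Il7 was lower in ASCs than in FAPs at the edge of the threshold. The mean in FAPs was 2.10 times that in ASCs, with a log2 fold change of −1.04 (SE 0.38, 95% confidence interval −1.89 to −0.19, limma adjusted p = 0.0376) and all 3 ASC libraries below both FAP libraries. The call was lost under 10 of 20 alternatives, over which the adjusted p ranged from 0.00504 to 0.327. Without FAP replicate 1 the log2 fold change was −0.68 (adjusted p = 0.262), the lone FAP library being assumed to vary like the others, and without ASC replicate 3 it was −0.78 (adjusted p = 0.0980). The call was also lost without injured FAP replicate 1, 2 or 3, where the value was −1.04 each time and the adjusted p was 0.0589, 0.0532 and 0.0574. Injured FAPs did not differ past the threshold from FAPs (log2 fold change −0.47, 95% confidence interval −1.32 to 0.38, adjusted p = 0.300, with the sign turned to 0.04 by quantile normalization) or from ASCs (0.57, −0.19 to 1.33, adjusted p = 0.167). Both intervals reach beyond 0.58, so a change of the size of the threshold is not excluded, and the difference from ASCs was 1.23 and called with total reads (adjusted p = 0.00899).

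An antisense gene, Gm16685, overlaps Il7 on the + strand. It was at 31.6, 36.2 and 36.4 in ASCs, 0.951 and 0 in FAPs, 7.06, 7.75 and 9.15 in injured FAPs and 0 in the CD31+CD45+ library. Its order of groups is the reverse of that of Il7, highest in ASCs and lowest in FAPs. The strand setting of the counting is not stated, so reads of Il7 and Gm16685 in shared bases cannot be told apart.

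Tnfsf13b lies at chr8:10006467-10039072 on the + strand (ENSMUSG00000031497.9), has 6868 exon bases and overlaps Gm44789, a gene of the − strand that is not in the table. Its normalized counts were 425.5, 318 and 330.2 in ASCs, 60.9 and 72.4 in FAPs, 30.6, 37.2 and 29.7 in injured FAPs and 20.4 in the CD31+CD45+ library. The groups of replicates formed 3 separate steps, ASCs highest, FAPs between and injured FAPs lowest, with no overlap between any of them. Reads numbered 263 to 323 in ASCs, 64 and 77 in FAPs, 39 to 48 in injured FAPs and 13 in the CD31+CD45+ library.

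The mean ± SD of Tnfsf13b was 358.0 ± 58.8 for ASCs (n = 3), 66.6 ± 8.19 for FAPs (n = 2) and 32.5 ± 4.08 for injured FAPs (n = 3). After injury it fell to a level 2.05 times lower than in FAPs (log2 fold change −1.01, SE 0.21, 95% confidence interval −1.49 to −0.54, limma adjusted p = 0.00178, lower in 3 of 3 injured FAP libraries). Quantile normalization reduced this fall to −0.58, which still passed, and the adjusted p ranged from 0.000385 to 0.0251 over 21 alternatives. ASCs were 5.37 times above FAPs (log2 fold change 2.40, 95% confidence interval 1.93 to 2.87, adjusted p = 6.95e-06, higher in 3 of 3 ASC libraries) and 11.0 times above injured FAPs (seen from injured FAPs, a log2 fold change of −3.42, SE 0.19, 95% confidence interval −3.84 to −2.99, adjusted p = 1.92e-07). All 3 Tnfsf13b comparisons passed the threshold under each of the 21 alternatives. Since 1 is added to each value before the logarithm, fold changes of low genes such as Tnfsf13b in injured FAPs or Il7 are understated.

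Per kilobase of exon the members could be set beside each other. The mean level of Pdpn per kilobase was 1529 in FAPs, 10464 in injured FAPs, 9177 in ASCs and 82.1 in the CD31+CD45+ library. For Ltbr it was 1301, 1155, 1250.4 and 1351 in the same order. Pdpn and Ltbr were thus close to each other in FAPs and far apart in the other groups. Tnfsf13b stood at 9.70, 4.73, 52.1 and 2.97 per kilobase and Il7 at 6.44, 4.46, 3.07 and 5.54, both far below the former pair in the FAP, injured FAP and ASC groups. The order of these last genes depended on the group: Tnfsf13b was above Il7 in ASCs and FAPs, and the pair lay close together in injured FAPs.

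Pdpn against FAPs is description, so it is not counted in the comparisons with FAPs. Between injured FAPs and FAPs, 0 of the other 3 members were higher and 1 was lower (Tnfsf13b) past the threshold, while 24.9% of tested genes were higher, 27.7% lower and 52.6% either. Between ASCs and FAPs, 1 of these 3 was higher (Tnfsf13b) and 1 was lower (Il7), with 23.4% of tested genes higher, 23.8% lower and 47.2% either. Between injured FAPs and ASCs, none of the 4 members was higher and 1 was lower (Tnfsf13b), with 25% of tested genes higher, 25.8% lower and 50.8% either. With so few members, these shares say nothing about the members as a group. The first pair of comparisons share the FAP libraries. Side by side, the log2 fold changes against FAPs were 2.77 after injury and 2.54 in ASCs for Pdpn, −1.01 and 2.40 for Tnfsf13b, −0.47 and −1.04 for Il7, and −0.17 and −0.06 for Ltbr, the last with the scaling and library limits given for it.

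**Figure D2:**
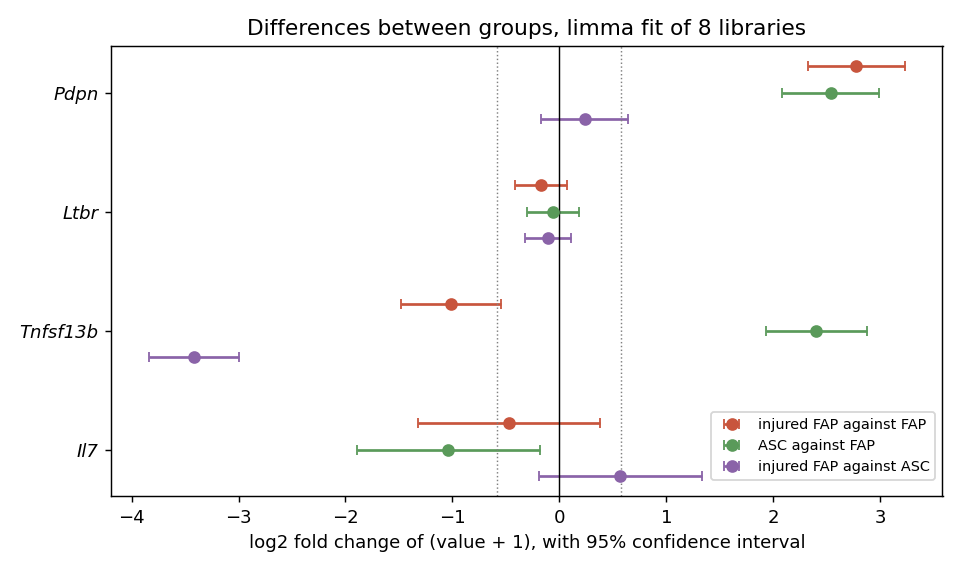
Log2 fold changes of (value + 1) of the 4 members in the 3 comparisons, with 95% confidence intervals and dotted lines at 0.58 either way; Pdpn against FAPs is description. Pdpn stands near 2.77 and 2.54 against FAPs, and Tnfsf13b changes sign between the comparisons against FAPs.

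Choice of scaling moves all genes at once in these libraries. The median log2 fold change over all tested genes was −0.05 for injured FAPs against FAPs, 0.00 for ASCs against FAPs and 0.02 for injured FAPs against ASCs. With a common 75th percentile the medians were −0.15, −0.20 and 0.13, and with total reads 0.08, −0.56 and 0.71. Of the genes called between ASCs and FAPs, 49.6% were higher in ASCs, but 37.2% with the 75th percentile and 20.1% with total reads. Between injured FAPs and ASCs, 49.3% of called genes were higher in injured FAPs, but 81.3% with total reads.

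Podoplanin acts through partners, and 13 of 14 listed partner genes were tested. Clec1b, which encodes CLEC-2, was listed at 0 in all 8 libraries of ASCs, FAPs and injured FAPs and at 3.14 (2 reads) in the CD31+CD45+ library. Against FAPs, injured FAPs had 3 partner genes higher and 2 lower (median log2 fold change 0.22) and ASCs had 4 higher and 3 lower (median 0.34). Between injured FAPs and ASCs, 2 were higher and 2 lower in injured FAPs (median −0.11), but 4 were higher after quantile normalization and 7 with total reads. Quantile normalization left 2 higher in ASCs against FAPs. With the scaling of the table, 38.5% of the tested partners were called after injury, 53.8% for ASCs against FAPs and 30.8% for injured FAPs against ASCs. Of all tested genes, 52.6%, 47.2% and 50.8% were called in these comparisons.

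Cd44, a hyaluronan receptor that binds podoplanin, was at 3500.2 and 3418 in FAPs, 18562, 17015 and 20073 in injured FAPs, 19683, 9938 and 10742 in ASCs and 3074 in the CD31+CD45+ library. It rose after injury by a log2 fold change of 2.42 (SE 0.24, adjusted p = 1.31e-05) and was higher in ASCs by 1.89 (SE 0.24, adjusted p = 8.70e-05, and 1.25 after quantile normalization), with ASC replicate 1 again the highest of its group. Of the 3 listed linkers of podoplanin to actin, Ezr was lower and Msn and Rdx were higher after injury. Ezr (ezrin) fell from 1494 and 1804 in FAPs to 720.3, 674 and 654 in injured FAPs (log2 fold change −1.26, SE 0.20, adjusted p = 0.000333). Msn (moesin) rose from 11911 and 11892 to 25341, 24301 and 25356 (1.07, SE 0.13, adjusted p = 3.89e-05), above the 11558, 8728 and 9545 of ASCs. Rdx (radixin) was at 3069 and 2932 in FAPs and 4238, 4514 and 4719 in injured FAPs, a log2 fold change of 0.58 (SE 0.09, adjusted p = 0.000293) at the edge of the threshold, no longer called under 7 alternatives, among them quantile normalization (0.48), a common 75th percentile (0.49) and leaving out injured FAP replicate 3 (0.54). The tetraspanin gene Cd9 fell from 7569 and 7428 to 3754, 3305 and 4108 after injury (−1.02) and was lower still in ASCs at 3205, 2742 and 2502 (−1.42 against FAPs).

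Podoplanin carries O-linked sugars, and 2 enzymes of their synthesis were higher in ASCs. C1galt1, which adds galactose to the first sugar, was at 1595, 1635 and 1773 in ASCs, 549 and 497 in FAPs and 632, 615 and 658 in injured FAPs. Its log2 fold change was 1.67 for ASCs against FAPs (SE 0.10, adjusted p = 7.03e-07) and −1.39 for injured FAPs against ASCs. St3gal1, a sialyltransferase, was at 20910.4, 15752 and 16091 in ASCs, 7792 and 7507 in FAPs and 5922, 5473 and 5063 in injured FAPs, with log2 fold changes of 1.19 for ASCs against FAPs (0.46 and not called after quantile normalization) and −1.67 for injured FAPs against ASCs.

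Around Ltbr, 11 of 14 listed genes of the lymphotoxin receptor pathway were tested. The ligand genes were low: Lta was at most 36.9 (ASC replicate 1), Tnfsf14 (LIGHT) at most 11.3 and Ltb at most 3.10 in the 8 libraries, and all 3 were below the filter. In the CD31+CD45+ library Ltb was at 47.1, Tnfsf14 at 20.4 and Lta at 7.85. Of the tested genes, 5 were higher and 1 lower after injury (median log2 fold change 0.36), 7 higher and 2 lower in ASCs against FAPs (median 0.81), and none higher and 5 lower in injured FAPs against ASCs (median −0.45). For all tested genes the shares were 24.9% higher and 27.7% lower after injury, 23.4% higher and 23.8% lower for ASCs beside FAPs, and 25% higher and 25.8% lower for injured FAPs beside ASCs. With total reads the counts became 4 higher and 3 lower in ASCs against FAPs, and 3 higher and 2 lower in injured FAPs against ASCs. With the scaling of the table, the 2 genes lower in ASCs against FAPs were Tnfrsf14 and Map3k14. Neither was called without FAP replicate 1, where the log2 fold changes were −0.70 and −0.95. Among other alternatives, Tnfrsf14 (−0.72) was also not called after quantile normalization (−0.26) or without ASC replicate 3 (−0.67).

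Nfkb2 and Relb encode the p100 and RelB subunits of the non-canonical NF-kB pathway. Nfkb2 rose from 1251 and 1539 in FAPs to 3150.2, 3094 and 2641 in injured FAPs and was at 6093, 4918 and 3992 in ASCs. Relb rose from 633 and 605 to 1168, 1155 and 982 and was at 2425, 2009 and 1817 in ASCs. For both genes the 3 groups did not overlap. Their log2 fold changes were 1.09 and 0.83 after injury (adjusted p = 0.000277 and 0.000384) and 1.83 and 1.74 in ASCs against FAPs. Between injured FAPs and ASCs they were −0.74 for Nfkb2, which was no longer called after quantile normalization (−0.41) or with total reads (−0.04), and −0.91 for Relb, which was −0.21 and not called with total reads. Map3k14, the kinase NIK of this pathway, went the other way, from 783 and 764 in FAPs to 561, 539 and 409 in injured FAPs (−0.63, adjusted p = 0.0556, not called) and 270.1, 576 and 397 in ASCs (−0.97, adjusted p = 0.00927, not called without FAP replicate 1).

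Birc3, a ubiquitin ligase of the same receptor complexes, stood in 3 steps without overlap: 962 and 756 in FAPs, 2146, 1841 and 2004 in injured FAPs and 4873, 6446 and 5310.2 in ASCs. It differed by 1.22 after injury (SE 0.14, adjusted p = 4.11e-05), by 2.69 in ASCs against FAPs (SE 0.14, adjusted p = 2.96e-07) and by −1.47 in injured FAPs against ASCs. Tnfrsf1b, a receptor of TNF and lymphotoxin alpha, was higher in ASCs (12145, 4542 and 5487) than in FAPs (1269 and 1442) or injured FAPs (1607, 1592 and 1406), with a log2 fold change of 2.31 against FAPs. Tnfrsf14, a further receptor of LIGHT, fell after injury from 112 and 109 to 51.8, 47.3 and 47.3 (−1.17, SE 0.24, adjusted p = 0.00144).

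Around Il7, the receptor gene Il7r was listed at 0 in FAPs and at 1.57, 9.30 and 0 in injured FAPs, 1.32, 0 and 0 in ASCs and 39.2 in the CD31+CD45+ library. Il2rg, the shared gamma chain, is at 0 in FAPs in the table and was at 39.2, 96.9 and 35.1 in injured FAPs, 10.5, 6.80 and 16.3 in ASCs and 2068.5 in the CD31+CD45+ library. Of the 13601 tested genes 122 are at exactly 0 in both FAP libraries, against 15 to 20 for pairs of injured FAP libraries and 23 to 39 for pairs of ASC libraries, and the sources give no reason, so these zeros are in doubt. If the zeros are counts, against a limit of 3 reads in a FAP library the Il2rg mean was at least 20-fold higher in injured FAPs, or 13.0-fold without replicate 2, and at least 3.93-fold higher in ASCs. Il2rg is a leukocyte gene, and its order among the injured FAP libraries, highest in replicate 2, was that of the leukocyte markers described further on. Their part in it was not tested.

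Of the 8 genes of the IL-7 pathway, 7 were tested. The called share of these was 71.4% after injury, 57.1% for ASCs against FAPs and 71.4% for injured FAPs against ASCs. Over all tested genes it was 52.6%, 47.2% and 50.8%. Of the 7 pathway genes, after injury 4 were higher and 1 lower (median log2 fold change 0.63, the same with Il2rg at its lower bound). Against FAPs, ASCs had 3 higher and 1 lower (median 0.18), and injured FAPs against ASCs had 2 higher and 3 lower (median −0.29). The last counts became 1 higher and 1 lower after quantile normalization and 3 higher and 1 lower with total reads, where Stat5a and Stat5b turned. Tslp, at 0.83 higher in injured FAPs than in ASCs, was not called without ASC replicate 3 (0.56). The same held without injured FAP replicate 1 (0.70) or 3 (0.80). With a common 75th percentile or without FAP replicate 2, those higher after injury numbered 2. Jak1, a kinase of many cytokine receptors, was at 34598, 25468 and 27877 in ASCs, 5931 and 5281 in FAPs and 9143, 8184 and 8712 in injured FAPs, a log2 fold change of 2.38 (SE 0.14, adjusted p = 4.50e-07) for ASCs against FAPs that was 1.57 after quantile normalization. Stat5a, a signal transducer of the IL-7 receptor, rose after injury from 565 and 573 to 1182, 1087 and 1253 (1.04, SE 0.21, adjusted p = 0.00128) and was at 2487, 1728 and 1342 in ASCs. Jak3, the kinase bound to the gamma chain, fell after injury from 398 and 449 to 179.7, 208 and 155 (−1.23, SE 0.19, adjusted p = 0.000278) and was at 4495 in the CD31+CD45+ library.

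Around Tnfsf13b, the receptor genes were at or near 0. Tnfrsf17 was listed at 0 in all 8 libraries, Tnfrsf13c was at most 2.29, and Tnfrsf13b was at most 3.95 apart from 11.6 in injured FAP replicate 2. In the CD31+CD45+ library they were at 4.71, 23.5 and 54.9. This left 2 of 5 listed genes to test, of which 1 was higher and 1 lower after injury (median log2 fold change −0.56), none was called between ASCs and FAPs by limma (median −0.02) and 1 was lower in injured FAPs than in ASCs (median −0.54). Of all tested genes, 52.6%, 47.2% and 50.8% were called in these 3 comparisons. Tnfsf13, the gene of the related ligand APRIL, fell after injury together with Tnfsf13b, from 42.8 and 54.6 to 12.6, 10.8 and 13.0 (log2 fold change −1.91, SE 0.33, adjusted p = 0.000537), and was at 36.9, 24.9 and 42.7 in ASCs. Furin, the protease that releases BAFF and APRIL from their precursors, rose from 2777 and 2634 to 4896, 4658 and 4598 (0.80, SE 0.15, adjusted p = 0.000987).

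**Figure D3:**
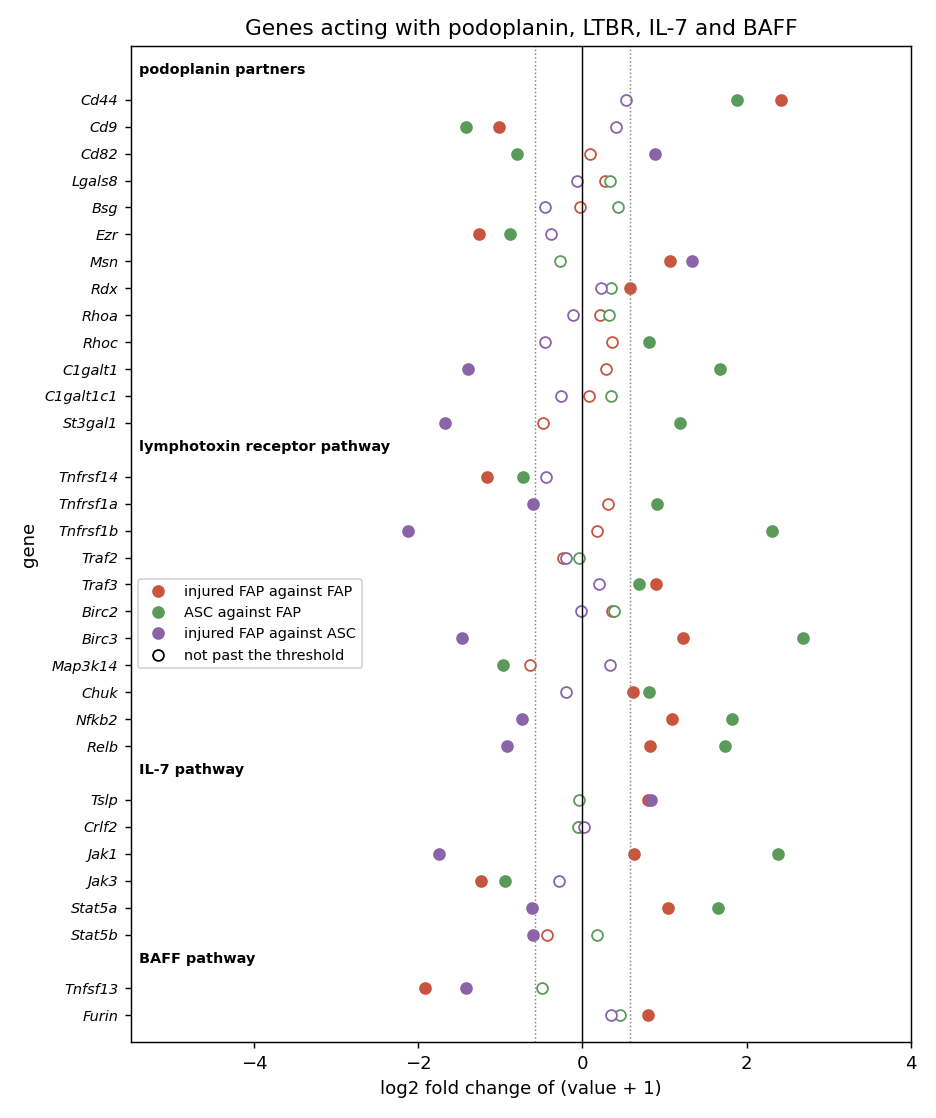
Log2 fold changes of (value + 1) for the tested partner and pathway genes in the 3 comparisons, with filled points past the threshold and dotted lines at 0.58 either way; Il2rg, listed at 0 in FAPs, is left out. Birc3 at 2.69, Jak1 at 2.38 and Tnfrsf1b at 2.31 lie farthest to the right for ASCs against FAPs.

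A panel of 30 genes of lymphoid-type stromal cells was read beside the members. After injury 11 of 25 tested genes were higher and 8 lower (median log2 fold change 0.20), ASCs against FAPs had 13 higher and 5 lower (median 0.83), and injured FAPs against ASCs had 4 higher and 13 lower (median −0.64). Scaling moved these counts: with total reads 9 were lower in ASCs against FAPs, and 10 were higher and 7 lower in injured FAPs against ASCs. Over all tested genes, 24.9% were higher and 27.7% lower after injury, 23.4% higher and 23.8% lower in ASCs than in FAPs, and 25% higher and 25.8% lower in injured FAPs than in ASCs. The first medians, 0.20 and 0.83, were the same with Bst1 at its lower bound. The T zone chemokine genes Ccl19 and Ccl21a, which have near-identical copies in the mouse genome, were listed at 0 in all 9 libraries. Madcam1, Grem1 and Cr2 were at most 3.76, 1.90 and 2.85 in the 8 libraries and were not tested.

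Of the chemokine genes, Cxcl13, Cxcl10 and Cxcl9 were higher in ASCs than in FAPs or injured FAPs. Cxcl13, which attracts B cells, was at 4026, 8308 and 2432 in ASCs, 179.7 and 96.9 in FAPs and 183, 168 and 86.9 in injured FAPs. It was higher in ASCs than in FAPs by a log2 fold change of 5.03 (SE 0.48, adjusted p = 1.15e-05), and FAPs and injured FAPs overlapped. Cxcl10, which attracts activated T cells, was at 12574, 10607 and 14837 in ASCs, 242 and 198 in FAPs and 2748, 1669 and 2181 in injured FAPs, with log2 fold changes of 5.84 for ASCs against FAPs (SE 0.20, adjusted p = 2.71e-08) and 3.30 after injury (SE 0.20, adjusted p = 8.09e-07). Cxcl9, a ligand of the same receptor, was at 2280.3, 2052 and 2325 in ASCs, 105 and 129.8 in FAPs and 385, 285 and 324 in injured FAPs, a log2 fold change of 4.24 for ASCs against FAPs (SE 0.15, adjusted p = 3.74e-08). The steps from FAPs through injured FAPs to ASCs did not overlap for Cxcl9 and Cxcl10.

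Il6 and Ptgs2 followed the same steps. Il6, the cytokine gene, was at 1000.3 and 652 in FAPs, 11522, 10246 and 13258 in injured FAPs and 20777, 19198 and 14928 in ASCs, with log2 fold changes of 3.84 after injury (SE 0.20, adjusted p = 3.63e-07) and 4.49 in ASCs against FAPs. Ptgs2, which encodes cyclooxygenase-2, was at 4592 and 3379 in FAPs, 30673, 27318 and 36900.1 in injured FAPs and 55362, 41894 and 59969 in ASCs, with 2.99 after injury (SE 0.19, adjusted p = 1.01e-06) and 3.72 in ASCs against FAPs. Their differences between injured FAPs and ASCs depended on the scaling: −0.64 for Il6 turned to 0.05 after quantile normalization and 0.06 with total reads, and −0.72 for Ptgs2 turned to 0.31 after quantile normalization and was −0.02 and not called with total reads. The Il6 call was also lost with edgeR (−0.56), with a common 75th percentile (−0.53) and without ASC replicate 1 (−0.54) or injured FAP replicate 2 (−0.55).

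Among the tested groups Tnfsf11 and Ch25h were highest in injured FAPs, as were, among others, Vcam1 and Pdgfra. Tnfsf11, which encodes RANKL, a ligand needed for lymph node formation, was at 56.5, 118 and 90.8 in injured FAPs, 9.51 and 4.70 in FAPs and 15.8, 10.2 and 3.77 in ASCs. It rose after injury by a log2 fold change of 3.47 (SE 0.56, adjusted p = 0.000345) and was higher than in ASCs by 3.15 (SE 0.50, adjusted p = 0.000275). Its FAP and ASC values lie near the worth of 3 reads, which is 3.77 in ASC replicate 3, so the size of these differences is uncertain. Ch25h, the enzyme that makes 25-hydroxycholesterol, was at 201, 169 and 181 in injured FAPs, 8.56 and 14.1 in FAPs and 67.2, 32.8 and 36.4 in ASCs, with 3.94 after injury (SE 0.34, adjusted p = 5.01e-06). It reached 716 in the CD31+CD45+ library. Bst1, also known as CD157, is at 0 in FAPs in the table, with the doubt given for Il2rg, and was at 17.3, 34.1 and 9.92 in injured FAPs, 9.22, 6.80 and 5.02 in ASCs and 160.1 in the CD31+CD45+ library, which, if the zeros are counts, puts injured FAPs at least 7.16-fold, or 4.76-fold without replicate 2, and ASCs at least 2.46-fold above the limit of 3 reads in a FAP library. Enpp2, the gene of autotaxin, was lower in injured FAPs (1394, 1319 and 1376) than in ASCs (3445, 3721 and 4259) by −1.48 (SE 0.09, adjusted p = 4.54e-07), and FAPs (4141 and 4123) lay within the ASC range.

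**Figure D4:**
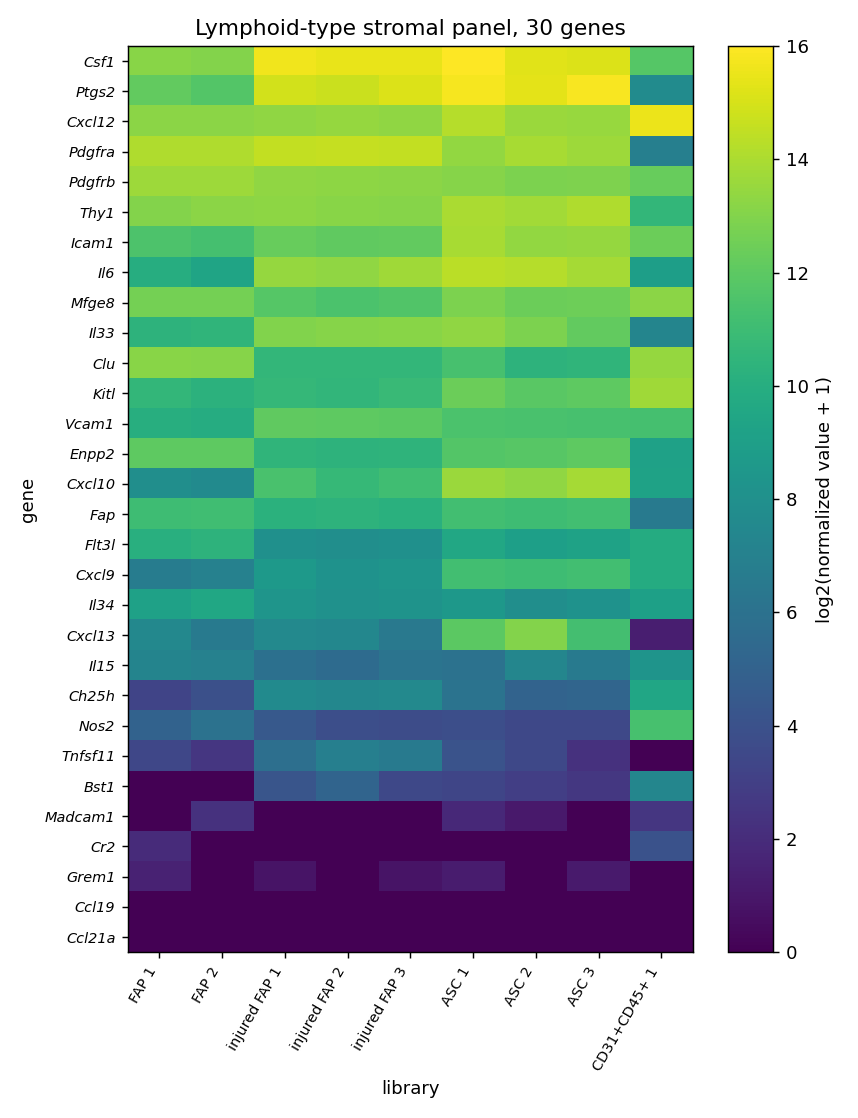
Normalized values of the 30 panel genes in each library, as log2(value + 1) on a colour scale, with libraries in columns by group. Cxcl13, Cxcl9 and Cxcl10 are highest in the 3 ASC columns, and Tnfsf11 and Ch25h are higher in the 3 injured FAP columns than in the FAP and ASC columns.

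The labelled cell types were checked against marker genes. Beside the counts of the marker lists below, 24.9% of all tested genes were higher and 27.7% lower after injury. These shares were 23.4% and 23.8% for ASCs against FAPs, and 25% and 25.8% for injured FAPs against ASCs. Of 8 ASC and FAP markers none was at 0 in any library, and their summed value was 1059780 and 1215930 in FAPs, 405316 to 453946 in injured FAPs, 1694470 to 2180310 in ASCs and 58803 in the CD31+CD45+ library, with Col1a1 the most abundant in each. Pdgfra was at 17754 and 17756 in FAPs, 23649, 25268 and 23236 in injured FAPs, 10837, 15083 and 13043 in ASCs and 119 in the CD31+CD45+ library. After injury 1 of these 8 genes was higher (Ly6a, which encodes Sca-1, not called without FAP replicate 2) and 5 were lower. ASCs against FAPs had 6 higher and none lower by limma, Cd34 among them with a log2 fold change of 0.67 that turned to −0.07 after quantile normalization, which also removed the calls of Col1a1 (0.79 to 0.11) and Thy1 (0.83 to 0.15). The Col1a1 call was lost under 9 alternatives. Injured FAPs against ASCs had 1 higher and 7 lower, of which Col1a1, Thy1 and Ly6a were not called after quantile normalization, and the fall of Col1a1 after injury, −1.59, became −0.04 with it. Pi16 (log2 fold change −2.56 after injury and 2.49 in ASCs against FAPs) and Dpp4 (−1.09 and 3.14), markers of a stromal progenitor state, fell after injury while Pdpn was higher.

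Lymphatic endothelium, mesothelium and platelets also bear on podoplanin, since the first 2 express it and platelets carry its receptor. The lymphatic list summed to 440.3 and 533 in FAPs, 654, 495 and 700.2 in injured FAPs, 282, 174 and 189.6 in ASCs and 9256 in the CD31+CD45+ library, the library lowest in Pdpn. Reln was its most abundant gene in FAPs and injured FAPs and Prox1 in ASCs, and Mmrn1 was listed at 0 in 7 of the 8 tested libraries. Of 6 listed genes 4 were tested: 1 was higher and 2 lower both after injury and in ASCs against FAPs, and 2 were higher and 2 lower in injured FAPs against ASCs. The higher gene against FAPs was Lyve1 each time, which is at 0 in both FAP libraries, and its call as lower in injured FAPs than in ASCs was lost under 10 alternatives. The mesothelial list summed to 52.3 and 63.03 in FAPs, 77.7, 63.5 and 83.1 in injured FAPs, 359.6, 58.9 and 128 in ASCs and 21.97 in the CD31+CD45+ library. ASC replicate 1, the highest in Pdpn, was also the highest in this list, through Krt19 at 336, and its 4 genes Upk3b, Upk1b, Lrrn4 and Wt1 were at most 7.90 there. Of 2 tested mesothelial genes none was called after injury by limma, and 1 was higher and 1 lower in each of the other comparisons. Against FAPs, the calls of Krt19 (higher) and Msln (lower) in ASCs were both lost without FAP replicate 2, and that of Krt19 also without FAP replicate 1. The Krt19 log2 fold change of 2.19 stayed about as large, at 2.23 without FAP replicate 2 and 2.14 without FAP replicate 1. For Msln it was −1.69, and −1.43 without FAP replicate 2. The part of lymphatic or mesothelial cells in the Pdpn values was not tested.

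Of the 6 platelet genes, Pf4 was at 33.7, 164 and 33.6 and Ppbp at 21.97, 76.7 and 25.9 in injured FAPs, both were listed at 0 in FAPs, and in ASCs they were at most 2.63 and 2.27. The list summed to 300.5 and 389 in FAPs, 274, 465 and 273 in injured FAPs, 375, 669 and 466 in ASCs and 673 in the CD31+CD45+ library, with Itga2b the most abundant in each tested library. Of 3 tested genes 2 were higher (Pf4 and Ppbp, against FAPs with the same zeros in doubt) and 1 lower in injured FAPs against FAPs and against ASCs, and none was called between ASCs and FAPs by limma. The lower gene was Itga2b, whose call after injury was lost without FAP replicate 2, without any 1 injured FAP replicate and with total reads. Gp1ba and Gp9 were at most 1.13 and 3.76 in the 8 libraries.

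Among the tested libraries the leukocyte sum was highest in injured FAP replicate 2. The 12 genes summed to 38.0 and 68.7 in FAPs, 445, 2330.4 and 395 in injured FAPs, 339, 296 and 218 in ASCs and 29557 in the CD31+CD45+ library. The most abundant gene was Cd79a in FAPs, Lyz2 in injured FAPs, Csf1r in ASCs and Cd74 in the CD31+CD45+ library. Ptprc, which encodes CD45, was listed at 0 in FAPs and was at 11.8, 55.8 and 9.92 in injured FAPs and 0, 1.13 and 0 in ASCs. In each FAP library 9 of the 12 genes were at 0. Of 8 tested genes 6 were higher and none lower after injury by limma, 4 were higher and none lower in ASCs against FAPs, and 6 were higher and 2 lower in injured FAPs against ASCs. The lower genes were Csf1r and Cd79a, whose calls were lost under 15 and 10 alternatives, among them leaving out ASC replicate 2 or 3 or injured FAP replicate 1 for both genes. All genes called against FAPs here are at 0 in both FAP libraries, so these calls rest on the zeros in doubt. Injured FAP replicate 2, which held the most leukocyte signal, lay between its replicates in Pdpn (19007 against 19613 and 18419) and was the highest of the 3 in Tnfsf13b (37.2 against 30.6 and 29.7) and in Il7 (27.9 against 24.32 and 23.6). The part of leukocytes in these values was not tested.

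The 10 blood endothelial genes summed to 6726 and 4573 in FAPs, 2213, 2269 and 1827 in injured FAPs, 7317, 5908 and 7717 in ASCs and 348275 in the CD31+CD45+ library. Tek was the most abundant in FAPs and ASCs and Cdh5 in the other groups. Most of each ASC sum was Tek, at 5986, 4841 and 6700, against 2120.5 and 1890 in FAPs. Emcn, Cldn5, Vwf and Plvap were listed at 0 in both FAP libraries, and Pecam1, which encodes CD31, was at 195 and 0 there. Of 9 tested genes 3 were higher and 4 lower after injury, 4 higher and 4 lower in ASCs against FAPs and 4 higher and 2 lower in injured FAPs against ASCs. The higher genes against FAPs were Emcn, Cldn5 and Plvap, whose calls rest on zeros in doubt, and in ASCs also Tek. The genes lower in ASCs than in FAPs were Cdh5, Kdr, Flt1 and Tie1. The smooth muscle and pericyte sum was highest in FAPs among the tested groups: the 7 genes summed to 18878 and 15572 in FAPs, 4734 to 5279 in injured FAPs, 3197 to 5049 in ASCs and 82512 in the CD31+CD45+ library. All 7 fell after injury, 6 were lower in ASCs than in FAPs, and 4 were higher and 2 lower in injured FAPs against ASCs. The direction of this fall is that of Tnfsf13b after injury. The sums of the ASC and FAP, blood endothelial, Schwann cell and muscle fibre genes also fell after injury. The CD31+CD45+ library, highest in the smooth muscle and pericyte sum, had Tnfsf13b at 20.4, and ASCs had it at 425.5, 318 and 330.2. The part of any of these cells in the fall of Tnfsf13b was not tested.

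Schwann cell genes summed to 659.9 and 1204 in FAPs, 266 to 486 in injured FAPs, 211 to 468 in ASCs and 7963 in the CD31+CD45+ library. Of the 4, none was higher and 2 were lower after injury, 4 were lower in ASCs than in FAPs and 1 was lower in injured FAPs than in ASCs. Muscle fibre genes summed to 674 and 845 in FAPs, 207 to 262 in injured FAPs, 105 to 151 in ASCs and 2850.1 in the CD31+CD45+ library. Of 4 tested, 2 were lower after injury, 4 were lower in ASCs than in FAPs and 3 were higher in injured FAPs than in ASCs.

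**Figure D5:**
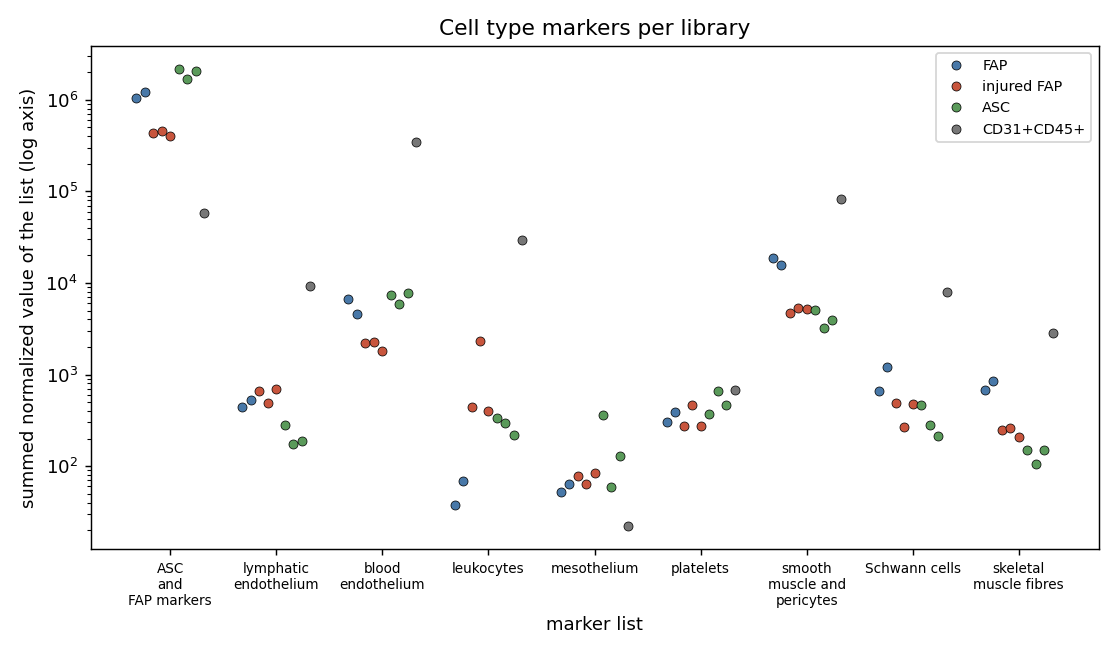
Summed normalized value of each marker list in each library on a log axis, 1 point per library. The leukocyte sum runs from 38.0 in FAP replicate 1 to 2330.4 in injured FAP replicate 2 among the tested libraries, and the smooth muscle and pericyte sum is highest in the 2 FAP libraries among them.

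The genes most alike to each member over the 8 tested libraries were found by Pearson r of log2(value + 1), with no test, since the libraries fall into 3 groups and r then mostly reflects the group means. For Pdpn, among 10592 genes, they were Csf1 (r = 0.997), Rps9 (0.996), Atp5md (0.996), Rplp0 (0.995) and Eif4a1 (0.995). Csf1, the gene of the macrophage growth factor, was at 9106 and 8344 in FAPs, 52626, 45563 and 46426 in injured FAPs and 65682, 40475 and 37155 in ASCs, and like Pdpn it was highest in ASC replicate 1. In the CD31+CD45+ library Csf1 was at 3566 and Pdpn at 149.1. Rps9 and Rplp0, ribosomal protein genes with pseudogene copies that make their counts uncertain, rose less: Rplp0 had means of 15124 in FAPs, 38129 in injured FAPs and 35611 in ASCs.

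For Tnfsf13b the nearest genes were Ctsl (r = 0.997), Plpp3 (0.996) and Ctsh (0.996). Ctsl and Ctsh encode the lysosomal proteases cathepsin L and cathepsin H. The mean ± SD of Ctsh was 2293 ± 14.1 for FAPs (n = 2), 1235 ± 119.6 for injured FAPs (n = 3) and 9859 ± 798 for ASCs (n = 3). For Ltbr they were Rsph3b (r = 0.967), which has a near-identical copy in Rsph3a and is uncertain, Arf5 (0.930) and Hivep1 (0.893). For Il7, among 10593 genes, they were Rtf2 (r = 0.962), Acot8 (0.951) and Snx11 (0.947).

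Among the members themselves, over the same 8 libraries, r was 0.122 for Pdpn with Tnfsf13b, −0.557 for Pdpn with Il7, −0.462 for Pdpn with Ltbr, −0.598 for Il7 with Tnfsf13b, 0.455 for Il7 with Ltbr and 0.308 for Tnfsf13b with Ltbr. No pair of members reached the r of the genes named above.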

How the data were processed

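The deposited table holds, for every gene, a signal in each library that the authors made by normalizing read counts. Per the submitters' processing notes, reads were checked with FastQC, aligned to mm10 with HISAT2, counted with featureCounts of Subread and analysed with DESeq2. In all 9 libraries 100% of values were whole reads (within 0.1) over a size factor. The table has 2 columns with no sample, which hold no values. Neither the strand setting nor the handling of reads with more than 1 match is given in the sources, which makes genes that have close copies or share bases with a neighbour uncertain.

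Limma 3.58.1 in R 4.3.3 was fitted to log2(value + 1) with a mean per group over 8 libraries and a trend in the prior variance, and p-values of the 13601 genes whose mean was at least 10 were adjusted by Benjamini-Hochberg. The study took 0.58 for the log2 fold change and 0.05 for p; here the 0.05 was applied to adjusted p. On the recovered reads edgeR 4.0.16 and DESeq2 1.42.0 called 7303 and 7227 genes after injury, 6450 and 6412 for ASCs against FAPs and 7000 and 6865 for injured FAPs against ASCs. The methods were tested on simulated data in which few genes were changed, in the injured FAP group only. That test held no shift of all genes, so it does not bear on the choice of scaling.

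The members and lists were chosen with earlier results of these data known. The lists were the lymphoid-type stromal panel, podoplanin partners, lymphotoxin receptor, IL-7 and BAFF pathways, and markers of ASCs and FAPs, lymphatic and blood endothelium, leukocytes, mesothelium, platelets, smooth muscle and pericytes, Schwann cells and muscle fibres. The rule for named genes took the members, called genes of a list by largest absolute log2 fold change among those averaging 10 or more, and, by Pearson r among tested genes averaging 100 or more, the 5 genes most like Pdpn and the 3 most like each other member. Other genes, among them the marker genes, those below the filter, Gm16685 and Pdgfra, were chosen after their values were seen. Coordinates and exon lengths came from the GRCm38 annotation.

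Alternatives were a pseudocount of 0.5 or 8, no filter or a mean of 50, quantile normalization, a common 75th percentile, median-of-ratios size factors, edgeR, DESeq2, a fit of only the compared groups, a replicate block, unadjusted p and each library left out. Scaling to total reads was chosen after seeing the data.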

Additional observations from a re-analysis of the deposited data

Results flagged for a closer look

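The CD31+CD45+ library entered no comparison. Of the 4 members, none was above 2 times the highest of the 5 libraries of NaCl-injected mice in it. Of the genes of the stromal panel and of the partner and pathway lists, the following were, each from more than 3 reads. The marker lists were left out of this search, although genes of theirs, such as Pecam1 at 45323 against at most 195, also lie above that level. The library has no replicate and these differences were not tested. It came from glycerol-injected muscle and the injured FAPs were not part of this search, so cell type and injury cannot be told apart in it.

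In the stromal panel 6 of 30 genes were above that level. Cxcl12, the chemokine gene that retains CXCR4-positive cells, was at 46926 against at most 18738 in the control libraries. Kitl, which encodes stem cell factor, was at 13469 against 5442, and Ch25h was at 716 against 67.2. Bst1 was at 160.1 against 9.22, Nos2, the inducible nitric oxide synthase gene, at 2635 against 64.0, and the complement receptor gene Cr2 at 15.7 against 2.85, from 10 reads. In injured FAPs Ch25h reached 201 and Bst1 34.1, above the control libraries and below the CD31+CD45+ library.

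Of the 14 podoplanin partners 2 were above it, Cd82 at 1086 against 346 and Msn at 29439 against 11911. In injured FAPs Msn was at 25341, 24301 and 25356, close to the CD31+CD45+ value, and Cd82 was at 403, 317 and 340. In the lymphotoxin receptor pathway 1 of 14 was, Ltb, at 47.1 against 2.51. In the IL-7 pathway 4 of 8 genes were: Il7r was at 39.2 against 1.32, Il2rg at 2068.5 against 16.3, Crlf2, which encodes the TSLP receptor, at 1127 against 345, and Jak3 at 4495 against 449. In the BAFF pathway 3 of 5 were: Tnfsf13 was at 132 against 54.6, Tnfrsf13b at 54.9 against 3.95 and Tnfrsf13c at 23.5 against 2.27. Injured FAPs reached 9.30 for Il7r, 96.9 for Il2rg and 11.6 for Tnfrsf13b.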

How the results depend on the processing

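Of the alternative values for the members, 230 kept their direction and their side of the threshold, 10 were no longer called, 4 became called and 5 turned, 1 of them past the threshold (Ltbr, below). All alternatives did for Tnfsf13b in the 3 comparisons (−1.14 to −0.58 for injured FAPs against FAPs, 1.84 to 2.82 for ASCs against FAPs, −3.51 to −2.73 for injured FAPs against ASCs). Pdpn against FAPs, given as description, ranged from 2.68 to 2.91 in injured FAPs and from 1.92 to 2.68 in ASCs. Its 21 values in each of these comparisons are among the 230 and are no test. Il7 was not tested at a mean of 50.

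Il7 in ASCs against FAPs was not called with no filter (−1.04, more genes tested), quantile normalization (−0.48), DESeq2 (−1.05) or only the compared groups (−1.04, fewer libraries), and ranged from −1.40 to −0.68 with a library left out. In injured FAPs against FAPs it turned to 0.0392 after quantile normalization. Ltbr in ASCs against FAPs ranged from −0.14 to 0.0177 with a library left out.

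With values scaled to total reads, an alternative chosen after seeing the data, Ltbr was called in ASCs against FAPs (−0.63). In injured FAPs against ASCs Pdpn (0.94) and Il7 (1.23) were called and Ltbr (0.59), Il6 (0.0560), Stat5a (0.0847), Stat5b (0.0931) and Tnfrsf1a (0.10) turned. The genes called in ASCs against FAPs were then 1594 higher and 6317 lower, and in injured FAPs against ASCs 7377 higher and 1692 lower. In the stromal panel 9 genes were lower in ASCs against FAPs, and 10 higher and 7 lower in injured FAPs against ASCs. This scaling shifts all genes together, as the medians given above show.

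Quantile normalization called Pdpn in injured FAPs against ASCs (0.96) and turned Ltbr (0.14), Il6 (0.0493) and Ptgs2 (0.31) there, and Cd34 in ASCs against FAPs (−0.0651). The panel then had 8 genes lower in ASCs against FAPs and 7 higher in injured FAPs against ASCs. A common 75th percentile turned Ltbr in injured FAPs against ASCs (0.00519). For these, the cause was not tested.

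With a replicate block Il7 in ASCs against FAPs was −0.89 and not called. Deviations of libraries with the same number correlated at −0.0545 to 0.0446 across genes, which showed no pairing by number and does not exclude it. With only 2 FAP libraries their deviations mirror each other, so their correlations are not separate values.

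Of 218 results for other named genes, 170 were the same under every alternative, and of 4538 values 4369 were the same, 162 were no longer called and 7 turned. Of 504 values for 24 counts of the partner and pathway lists, 466 were within 1.5 times the main count. The counts of the marker lists were not among them. Depth limits Il7, at 9 to 48 reads, and all genes near the worth of 3 reads.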
